A study of Mus musculus with 12 samples.

Results

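GABA-A receptors, the chloride channels through which GABA inhibits neurons, were followed gene by gene in the nucleus accumbens of adult mice that had been exposed to maternal immune activation before birth. The genes are Gabra2, Gabra3, Gabra4, Gabra5, Gabrb1, Gabrg1, Gabrg3 and Gabrd. They are a chosen set and not the whole family: 7 other subunit symbols with rows of their own are given further below. A gene of the set was kept where a row of the deposited array table is annotated to that symbol and no other. All 8 had such a row, and each had only 1, among 21218 rows with a single symbol that cover 18820 different symbols. The poly(I:C) group held 6 arrays, of offspring whose C57BL/6N mothers had received 5 mg/kg of poly(I:C), double-stranded RNA made in the laboratory as a stand-in for viral infection, intravenously on gestation day 17. The other 6 arrays came from control offspring of C57BL/6N mothers injected with saline on that day. Tissue was taken at 12 weeks, after behavioural testing, with core and shell of the accumbens together. The labels give neither sex nor litter, so offspring that shared a litter would have entered the tests as independent animals.

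A GABA-A receptor is a ring of subunits around a chloride pore, usually built from alpha and beta subunits with either a gamma or the delta subunit. GABA binds between alpha and beta, and the alpha subunit largely sets the response to benzodiazepines and the place of the receptor in the membrane. Receptors with a gamma subunit serve mainly fast synaptic inhibition, whereas those with alpha4 and delta, and many with alpha5, lie outside synapses and carry a tonic current. In the accumbens most neurons are GABAergic medium spiny neurons, which receive inhibition from each other and from interneurons.

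Markers of medium spiny neurons gave bright signals. Of 12 markers listed for these cells 10 had a row, and their median signal was 9.21 on the log2 scale, against 5.47 for all tested rows. Probe sets differ in efficiency and these markers are shared by the whole striatum, so the values do not separate accumbens from dorsal striatum. The mean of these markers lay between 9.01 and 9.39 in poly(I:C) arrays and between 8.75 and 9.31 in control arrays. Markers of surrounding tissue varied more. The mean of 8 cortical glutamatergic neuron genes lay between 5.83 and 6.65 in poly(I:C) arrays and between 5.32 and 6.48 in control arrays. For 12 genes of choroid plexus and ependyma the mean lay between 4.58 and 4.79 in poly(I:C) arrays and between 4.73 and 6.72 in control arrays, with controls 4 and 6 highest. Slc17a7, which loads glutamate into vesicles of cortical neurons, was at 8.82 ± 0.70 in poly(I:C) offspring and 7.32 ± 1.49 in controls (SD, n = 6 each). Ttr, the transthyretin gene of choroid plexus, was at 5.38 ± 0.74 in poly(I:C) offspring and 8.20 ± 2.13 in controls. The differences of Slc17a7 and Ttr were the highest and the lowest of all tested rows, at 1.51 and -2.82. The marker lists were chosen with earlier results of these data known. Their lists had median differences of 0.30 and -0.43. The limma fit called 0 genes of either list, with a lowest adjusted p of 0.167 for cortical and 0.151 for choroid plexus and ependymal genes. An unadjusted limma p under 0.05 was found for 5 of 8 cortical genes (62.5%, against 14.4% of all rows). It was found for 4 of 12 choroid plexus and ependymal genes (33.3%). In poly(I:C) offspring 7 of 8 cortical genes were higher in value, and 12 of 12 of the other list were lower. Of 11 oligodendrocyte markers 11 had lower means in the poly(I:C) group, 10 with an unadjusted limma p under 0.05 and 3 with ranges that did not overlap. Over all rows 14.4% had such a p in either direction, and 1.13% had ranges that did not overlap. The markers are genes of the same cells, measured on the same arrays. Their mean was 7.69 ± 0.061 in poly(I:C) offspring and 8.06 ± 0.24 in controls. The limma fit called 1 of the 11 markers, Mobp, where it called 0.0613% of all rows. Mobp, a myelin gene named after its value was seen, was at 8.49 ± 0.058 in poly(I:C) offspring and 9.00 ± 0.16 in controls (SD, n = 6 each, limma adjusted p = 0.0411). Septal and pallidal, microglial and interneuron marker means were at 5.79 ± 0.25, 6.39 ± 0.071 and 6.83 ± 0.10 in poly(I:C) offspring and 5.95 ± 0.38, 6.44 ± 0.065 and 6.87 ± 0.13 in controls. Unadjusted limma p was under 0.05 for 4 of 10, 2 of 7 and 1 of 9 genes of those lists (40%, 28.6% and 11.1%). In bulk tissue, fewer cells of a type and less RNA per cell cannot be told apart.

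None of the 8 subunit genes passed the test between exposure groups. In the limma fit of all rows, with Benjamini-Hochberg adjustment over 21218 rows, 0 of 8 passed an adjusted threshold of 0.05, where 13 rows in all (0.0613%) did, 6 of them higher (0.0283%) and 7 lower (0.033%). At an unadjusted p under 0.05 there was 1 of 8, Gabrg3, against 14.4% of all rows. The groups overlapped for all 8 genes, whereas the ranges did not overlap for 1.13% of all rows. In value 7 of the 8 were higher in poly(I:C) offspring, against 50.9% of all rows. Their median difference, poly(I:C) minus control, was 0.041 on the log2 scale, against 0.0016 for all rows, and single genes ran from -0.22 for Gabrg1 to 0.17 for Gabrg3. The 8 genes were measured on the same 12 arrays, so this count of directions is a description.

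**Figure D1:**
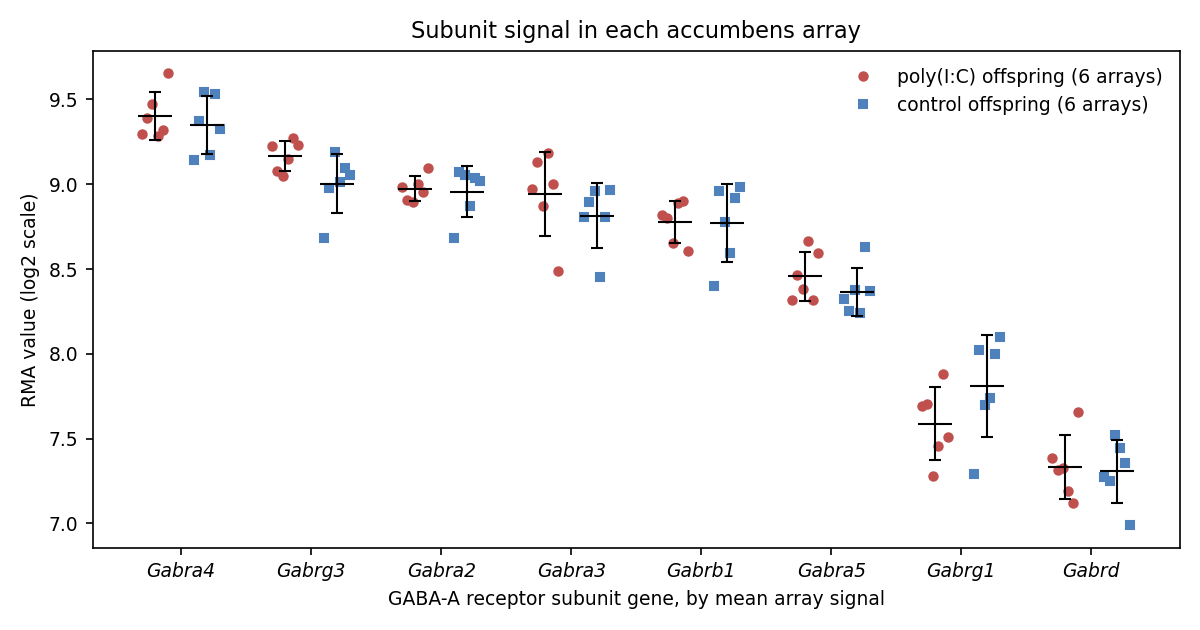
RMA value on the log2 scale of each subunit gene in each array, with poly(I:C) offspring as circles and control offspring as squares, and bars at the group mean with its SD (n = 6 arrays each). Genes are ordered by their mean over 12 arrays, and the groups overlap for every gene.

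Gabra4, which encodes the alpha4 subunit of extrasynaptic receptors, gave the brightest signal of the 8 genes. It ran from 9.29 through a median of 9.35 to 9.65 in poly(I:C) arrays and from 9.14 through 9.35 to 9.54 in control arrays. The highest array was poly(I:C) 6 and the lowest was control 1, and the group medians were equal to the second decimal. The means were 9.40 ± 0.14 in poly(I:C) offspring and 9.35 ± 0.17 in controls (SD, n = 6 each), a difference of 0.057 with a 95% interval of -0.12 to 0.23 (limma adjusted p = 0.794). With 1 array left out the difference ran from 0.0066, without poly(I:C) 6, to 0.096, without control 3. On the linear scale the interval runs from 0.922 to 1.17 times the control level.

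Gabra2, an alpha subunit of synaptic and axonal receptors, had the narrowest spread of the 8 genes. Its values ran from 8.90 through 8.97 to 9.10 in poly(I:C) arrays and from 8.68 through 9.03 to 9.07 in control arrays. Only poly(I:C) 6 was above the highest control, and control 1 was the lowest of 12 arrays. The difference was 0.018, with an interval of -0.12 to 0.15 (limma adjusted p = 0.936), which is 0.921 to 1.11 times the control level.

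Gabra3, an alpha subunit known from cholinergic and monoaminergic neurons and deep cortical layers, had the widest range of the alpha genes. It ran from 8.49 through 8.99 to 9.19 in poly(I:C) arrays and from 8.45 through 8.85 to 8.97 in control arrays. In 4 of 6 poly(I:C) arrays it was above the highest control, while poly(I:C) 6 was close to the lowest array, control 4. The means were 8.94 ± 0.25 in poly(I:C) offspring and 8.81 ± 0.19 in controls (SD, n = 6 each), a difference of 0.13 with an interval of -0.11 to 0.37 (limma adjusted p = 0.639). When marker means for cortex, septum and choroid plexus entered as covariates the value was -0.058. It was 0.055 without control 4 and 0.22 without poly(I:C) 6.

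Gabra5, best known from the hippocampus, where its receptors carry tonic current, ran from 8.31 through 8.42 to 8.66 in poly(I:C) arrays and from 8.24 through 8.34 to 8.63 in control arrays. A single control, array 5, stood apart at the top of its group, and the other controls lay at or below 8.37. The difference was 0.092, with an interval of -0.068 to 0.25 (limma adjusted p = 0.606). With 1 array left out the difference lay between 0.051 (no poly(I:C) 4) and 0.15 (no control 5). The upper bound is 1.19 times the control level.

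Gabrb1, the only beta subunit gene among the 8, showed the smallest difference. It ran from 8.61 through 8.81 to 8.90 in poly(I:C) arrays and from 8.40 through 8.85 to 8.98 in control arrays. Every poly(I:C) array lay inside the control range. The means were 8.78 ± 0.12 in poly(I:C) offspring and 8.77 ± 0.23 in controls (SD, n = 6 each), a difference of 0.0063 with an interval of -0.20 to 0.21 (limma adjusted p = 0.986).

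Gabrg1, a gamma subunit known in rodents from septal, pallidal and amygdalar areas and from some glia, was the only gene of lower value in poly(I:C) offspring. It ran from 7.28 through 7.60 to 7.88 in poly(I:C) arrays and from 7.29 through 7.87 to 8.10 in control arrays. Controls 2, 5 and 6 were near the top, and control 1 lay beside the lowest array, poly(I:C) 3. The means were 7.59 ± 0.21 in poly(I:C) offspring and 7.81 ± 0.30 in controls (SD, n = 6 each), a difference of -0.22 with an interval of -0.50 to 0.058 (limma adjusted p = 0.459). With those covariates the difference was -0.024 (adjusted p = 0.962), and without control 1 it was -0.32 (adjusted p = 0.173).

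Gabrg3, a further gamma subunit that can stand in synaptic receptors, had the smallest p of the 8. Its values ran from 9.05 through 9.19 to 9.27 in poly(I:C) arrays and from 8.68 through 9.03 to 9.19 in control arrays. In 3 of 6 poly(I:C) arrays it exceeded the highest control, array 3, and control 1 was the lowest array. The means were 9.17 ± 0.090 in poly(I:C) offspring and 9.00 ± 0.17 in controls (SD, n = 6 each). The difference of 0.17 had an interval of 0.010 to 0.32 with an unadjusted limma p of 0.0382, and over all rows the adjusted p was 0.317. Without control 1 the difference was 0.10 (adjusted p = 0.388), and with the marker means as covariates it was 0.26 (adjusted p = 0.366).

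Gabrd, the delta subunit that pairs with alpha4 in the forebrain, was the dimmest of the 8. It ran from 7.12 through 7.32 to 7.66 in poly(I:C) arrays and from 6.99 through 7.31 to 7.52 in control arrays. Both extremes were replicates numbered 6, the highest in poly(I:C) offspring and the lowest in controls. The difference was 0.026, with an interval of -0.18 to 0.23 (limma adjusted p = 0.937).

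**Figure D2:**
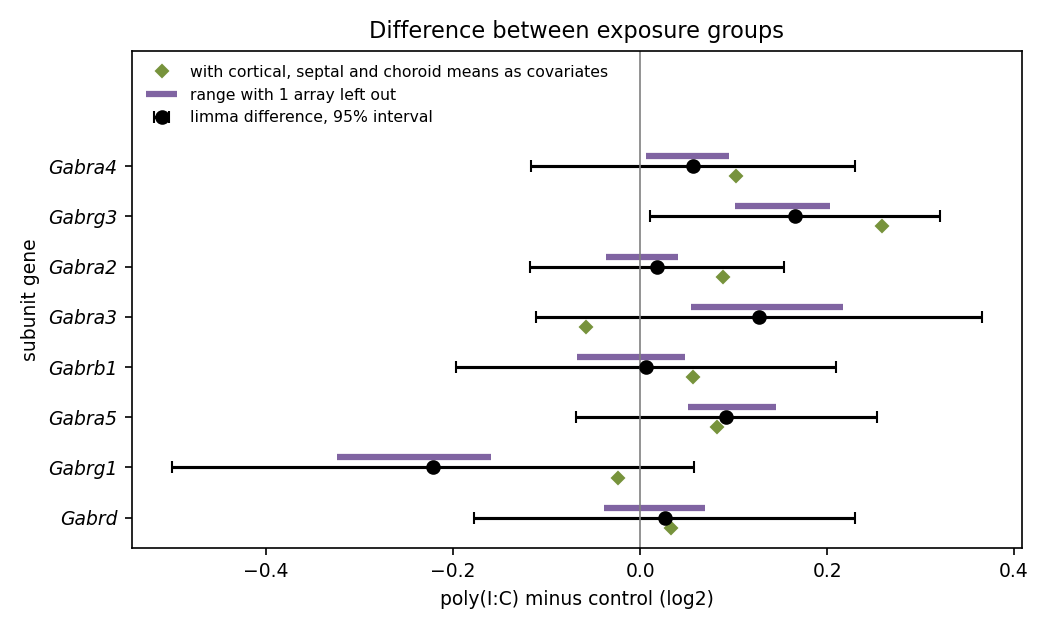
Difference between poly(I:C) and control offspring on the log2 scale for each subunit gene, with the 95% interval of the limma fit, the value with 3 marker means as covariates (diamonds) and the range when 1 array was left out (thick lines). Only the interval of Gabrg3 lies wholly above 0, and the Gabrg1 value moves to -0.024 with the covariates.

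The order of signal within the accumbens was the same in both groups. From bright to dim it ran Gabra4 (9.38 over 12 arrays), Gabrg3 (9.08), Gabra2 (8.96), Gabra3 (8.88), Gabrb1 (8.77), Gabra5 (8.41), Gabrg1 (7.70) and Gabrd (7.32), and each gene held the same place in the poly(I:C) means as in the control means. These are array signals on the log2 scale: probe sets bind with unequal efficiency, and no correction for transcript length was possible, so the order does not rank transcript numbers. All 8 lay in the upper part of the array, from the 78.3 percentile of all tested rows for Gabrd to the 96.8 percentile for Gabra4.

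Some neighbours in that order were not separated. Gabra4 was above Gabrg3 in 12 of 12 arrays, Gabrb1 above Gabra5 in 12 and Gabra5 above Gabrg1 in 12. The mean gap between Gabra2 and Gabra3 was 0.085 with an SD of 0.24 over arrays, and Gabra2 was brighter in 8 of 12. Gabra3 was above Gabrb1 in 7 of 12, by 0.10 with an SD of 0.19, in 5 poly(I:C) arrays but in 2 controls. Gabrg3 was above Gabra2 in 10 of 12 arrays. Gabrg1 was above Gabrd in 10 of 12 arrays, with a gap of 0.38 about as large as its SD of 0.38, and the exceptions were poly(I:C) 3 and poly(I:C) 6.

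The genes varied among animals to different degrees. The SD within groups was lowest for Gabra2 (0.12, at the 74.5 percentile of all rows) and highest for Gabrg1 (0.26, at the 97.9 percentile), with Gabra3 at the 96.2 percentile. Between the lowest and the highest array the signal differed by 1.33 times for Gabra2 and by 1.77 times for Gabrg1. Control 1 was the lowest of 12 arrays for Gabra2, Gabra4, Gabrb1 and Gabrg3, and it had the highest cortical marker mean of the controls (6.48).

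Of the 28 pairs of these genes, 0 passed as correlated over arrays after adjustment by permutation tests of Pearson's r or of Spearman's rho. The closest was Gabrb1 with Gabrg1, at r = 0.76 (permutation p = 0.0036, adjusted p = 0.101, n = 12) and rho = 0.73 (permutation p = 0.00958, adjusted p = 0.268). It was r = 0.81 without controls 1 and 4, the arrays farthest from the median of Gabrb1, 0.61 within poly(I:C) arrays and 0.95 within controls. Gabra2 with Gabrg3 had r = 0.73 (permutation p = 0.0181, adjusted p = 0.127) and rho = 0.41 (permutation p = 0.183, adjusted p = 0.569). Without controls 1 and 4 that r was 0.082, so the value over 12 arrays depended on those controls. Within poly(I:C) arrays it was 0.64 (exact permutation p = 0.172, n = 6) and within controls 0.86 (exact permutation p = 0.0556, n = 6). After subtraction of the group means it was 0.82 over 12 arrays.

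**Figure D3:**
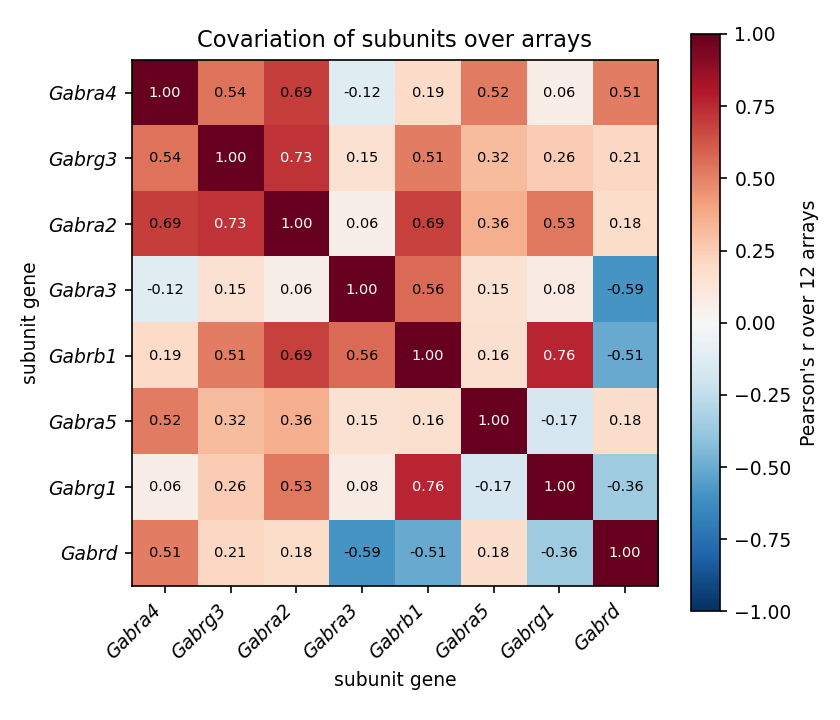
Pearson's r between subunit genes over the 12 arrays, written in each cell. The highest value is 0.76 for Gabrb1 with Gabrg1, while Gabra3 with Gabrd is at -0.59.

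Of the 8 genes, 4 are neighbours on chromosome 5, in the order Gabrg1, Gabra2, Gabra4 and Gabrb1, and Gabrg3 and Gabra5 are neighbours on chromosome 7. Gabra4 and Gabrb1 lie on opposite strands with their RefSeq starts 387 bases apart, each start inside the other gene. Their r over arrays was 0.19 (permutation p = 0.549, adjusted p = 0.756) and their rho 0.13 (permutation p = 0.685, adjusted p = 0.872). Their r was -0.92 within poly(I:C) arrays (unadjusted exact permutation p = 0.00833, n = 6) and 0.68 within controls (exact permutation p = 0.154, n = 6), and without poly(I:C) 6 and control 1 it was 0.14. Gabrb1 and Gabrg1, which had the highest r, have starts 815304 bases apart. The start regions of these 3 genes are given to set the overlapping head-to-head pair beside the distant gene, from RefSeq on GRCm38.p6, 250 bases before to 50 bases after the start, read 5′ to 3′ on the gene's strand. Capitals mark CG dinucleotides.
Gabra4 (chr5:71658259-71658558, minus strand): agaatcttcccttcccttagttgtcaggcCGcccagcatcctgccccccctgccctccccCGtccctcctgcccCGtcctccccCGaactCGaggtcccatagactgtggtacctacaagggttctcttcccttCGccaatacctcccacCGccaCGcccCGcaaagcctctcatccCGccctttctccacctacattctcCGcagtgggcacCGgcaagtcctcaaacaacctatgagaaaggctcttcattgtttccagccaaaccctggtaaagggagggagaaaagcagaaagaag
Gabrb1 (chr5:71657671-71657970, plus strand): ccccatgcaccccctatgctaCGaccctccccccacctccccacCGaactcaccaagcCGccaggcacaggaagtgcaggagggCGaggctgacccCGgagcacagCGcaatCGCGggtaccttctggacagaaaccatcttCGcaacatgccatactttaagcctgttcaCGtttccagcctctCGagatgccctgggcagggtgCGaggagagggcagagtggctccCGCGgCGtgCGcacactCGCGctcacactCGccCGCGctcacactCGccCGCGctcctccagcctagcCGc
Gabrg1 (chr5:70842568-70842867, minus strand): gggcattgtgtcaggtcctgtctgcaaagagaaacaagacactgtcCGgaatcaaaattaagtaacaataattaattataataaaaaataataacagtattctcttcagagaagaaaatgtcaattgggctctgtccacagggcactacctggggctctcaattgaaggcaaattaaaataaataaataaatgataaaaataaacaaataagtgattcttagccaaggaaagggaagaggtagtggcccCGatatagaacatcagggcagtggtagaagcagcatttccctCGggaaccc
The 3 windows differ in composition. Gabrb1 has 25 CG dinucleotides and 66.0% G or C, Gabra4 has 12 and 58.7%, and Gabrg1 has 3 and 38.3%, against medians of 7 and 52.7% over 32851 windows of 300 bases. Gabrb1 has a further RefSeq window at a later start, with 9 CG dinucleotides.

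RefSeq windows were found for 7 of the 8 genes, all but Gabrd. On both strands, TATAAA was in the windows of 1 gene, Gabra3 (13.6% of all windows hold it), CCAAT in those of 5 genes (37.4%), and GGGCGG in those of 3 genes, Gabra2, Gabra4 and Gabrg3 (35.7%). No match overlapped a match of another of these motifs in the windows of these genes. A match is a stretch of letters and not a known binding site.

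The subunits were also set against the cell markers from array to array. For 3 marker lists of surrounding tissue and 8 genes, 1 of 24 relations passed. Gabrg1 was lower where the cortical marker mean was higher, with r = -0.82 (permutation p = 0.00154, adjusted p = 0.0370, n = 12) and rho = -0.85 (permutation p = 0.00098, adjusted p = 0.0157 over 64 relations). The r was -0.76 without poly(I:C) 4 and control 6, -0.52 within poly(I:C) arrays (exact permutation p = 0.306, n = 6) and -0.92 within controls (exact permutation p = 0.00972, n = 6). The cortical mean itself was 6.25 ± 0.32 in poly(I:C) offspring and 5.76 ± 0.43 in controls (SD, n = 6 each), and its part in the Gabrg1 difference was not tested beyond the covariate value above. After subtraction of the group means 0 of 24 relations passed (r = -0.79 for Gabrg1 with the cortical mean), and without controls 4 and 6 the count was 0 of 24. Closest to passing among the rest was Gabrd with the septal and pallidal mean, at r = -0.74 (permutation p = 0.00593, adjusted p = 0.0712, n = 12) and rho = -0.62 (permutation p = 0.0351, adjusted p = 0.131 over 64 relations). That r was -0.60 without controls 2 and 6, -0.94 within poly(I:C) arrays (exact permutation p = 0.00972, n = 6) and -0.65 within controls (exact permutation p = 0.158, n = 6). Gabrg1 had r = 0.71 with the septal and pallidal mean (permutation p = 0.00937, adjusted p = 0.0750; rho = 0.69, permutation p = 0.0158, adjusted p = 0.108), which dropped to 0.46 without controls 2 and 6.

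With 5 further marker lists, added after the values were seen, 6 of 64 relations passed. Gabrd followed the spiny neuron markers most closely, with r = 0.94 (permutation p = 2e-05 from 100000 permutations, adjusted p = 0.00128, n = 12) and rho = 0.89 (permutation p = 0.0004, adjusted p = 0.0128). That r was 0.95 within poly(I:C) arrays (exact permutation p = 0.00833, n = 6), 0.96 within controls (exact permutation p = 0.00556, n = 6) and 0.84 without poly(I:C) 6 and control 6. Gabrb1 followed the astrocyte markers, with r = 0.82 (permutation p = 0.00107, adjusted p = 0.0329) and rho = 0.89 (permutation p = 0.00018, adjusted p = 0.0115), and r was 0.83 without control 4 and poly(I:C) 6. Within poly(I:C) arrays it was 0.84 (exact permutation p = 0.0333, n = 6) and within controls 0.83 (exact permutation p = 0.0403, n = 6).

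The other relations that passed were less even. Gabrb1 with interneuron markers had r = 0.78 (permutation p = 0.00242, adjusted p = 0.0380; rho = 0.85, permutation p = 0.00082, adjusted p = 0.0157), with 0.77 without poly(I:C) 6 and control 2, 0.61 within poly(I:C) arrays and 0.91 within controls. Gabrg1 with oligodendrocyte markers had r = 0.78 (permutation p = 0.00297, adjusted p = 0.0380; rho = 0.78, permutation p = 0.00459, adjusted p = 0.0588), with 0.59 without controls 2 and 6, 0.39 within poly(I:C) arrays and 0.91 within controls. Gabra3 with astrocyte markers had r = 0.77 (permutation p = 0.00367, adjusted p = 0.0391) and rho = 0.62 (permutation p = 0.0351, adjusted p = 0.131). Its r was 0.81 within poly(I:C) arrays (exact permutation p = 0.05, n = 6) and 0.82 within controls (exact permutation p = 0.0333, n = 6). Without control 4 and poly(I:C) 6 that r was 0.32, so that this relation rested largely on those arrays. The astrocyte mean was 7.94 ± 0.13 in poly(I:C) offspring and 7.92 ± 0.17 in controls (SD, n = 6 each), and the oligodendrocyte mean was lower in poly(I:C) offspring, as given above. The lists share arrays and normalization with the subunits, and their levels are not independent of each other.

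**Figure D4:**
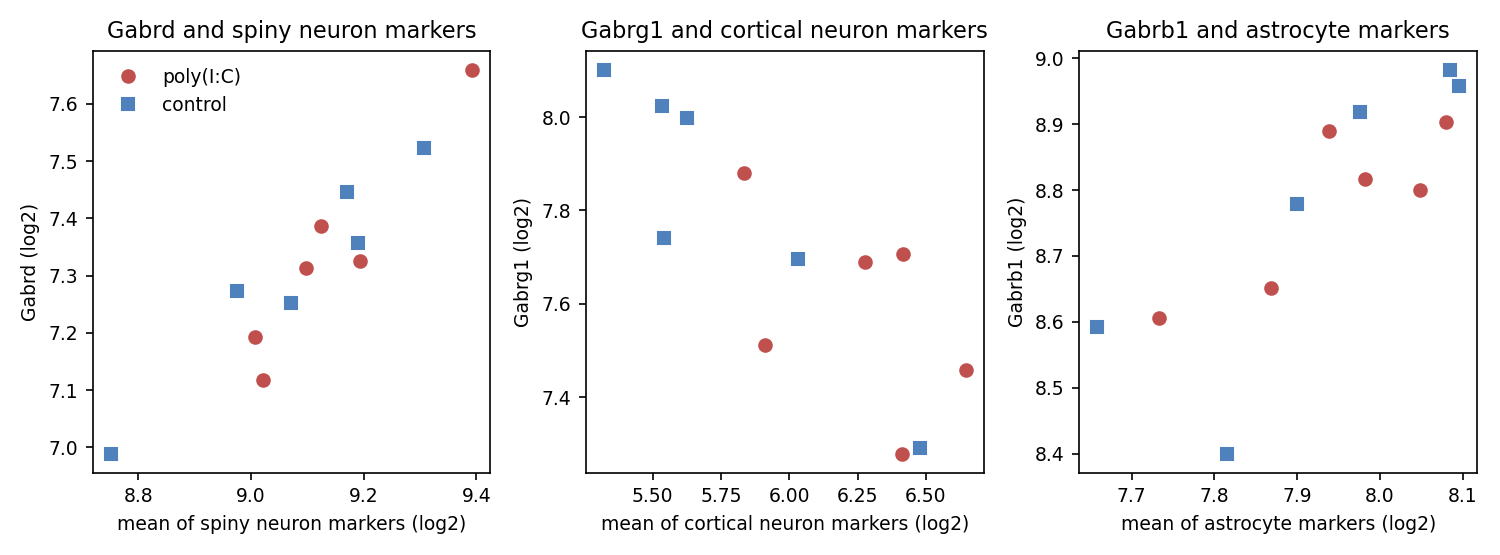
Values of Gabrd, Gabrg1 and Gabrb1 (log2, vertical axes) in each array against the mean of a marker list (log2, horizontal axes), with poly(I:C) offspring as circles and control offspring as squares. Gabrd climbs with the spiny neuron mean, with r = 0.94, Gabrg1 falls with the cortical mean, with r = -0.82, and Gabrb1 climbs with the astrocyte mean, with r = 0.82.

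The rows most like each subunit were found by Pearson's r over the 12 arrays, after subtraction of the group mean, among 10601 rows at or above the median level. For Gabrd the closest was Ppp1r1b, the DARPP-32 gene of spiny neurons and itself in the marker list, at 0.96, followed by Akap1 and Nckap5l. Gabra4 was closest to Ano3 (0.97), Dpy19l3 and Fat3. Gabra2 was closest to Gclc (0.97), Rabl3 and Amer2, and Gabra3 to Baalc (0.98), Idh3a and Immt.

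Gabrb1 was closest to Araf (0.98), Cbs, an enzyme of sulphur amino acid metabolism, and Zkscan1. Gabrg1 was closest to Ecel1 (0.96), Fbxo10 and the ephrin gene Efnb3, and Gabrg3 to Ssbp4 (0.94), Ccdc174 and Cpt1c. Gabra5 was closest to Rubcn (0.86), Slc35e2 (0.85) and Etv1 (0.84), and 0 of 10601 rows reached 0.9. That level was reached by 107 rows for Gabrb1, 66 for Gabra3, 53 for Gabrd, 40 for Gabra4, 27 for Gabrg1, 20 for Gabra2 and 8 for Gabrg3. The closest rows are the highest of 10601 values, and the count for a typical row was not computed.

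Other subunit genes of the family with a single-symbol row gave 0 calls in 9 rows of 7 symbols. An unadjusted limma p under 0.05 was found for 2 rows (22.2%, against 14.4% of all rows). These are named although they were chosen after their values were seen. Gabrq, the theta subunit gene, was at 5.34 ± 0.52 in poly(I:C) offspring and 5.91 ± 0.51 in controls (SD, n = 6 each), a difference of -0.57 (limma adjusted p = 0.323). A row of Gabrb2, a major beta subunit gene of the brain, had a difference of 0.20 (adjusted p = 0.311), while its other rows gave 0.14 and 0.0097, so the rows of this gene disagreed in size. Over 12 arrays the Gabrb2 rows had means of 9.25, 9.26 and 9.31, and they were not placed in the signal order above. Of the 9 rows 5 lay below the median level of all tested rows.

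Genes that make, move and clear GABA, listed together with GABA-B receptor subunits and chloride transporters as the GABA supply list, did not pass either. Of 12 genes in that list 11 had a row, and in poly(I:C) offspring 8 had a higher and 3 a lower value. The limma fit called 0, with 1 at an unadjusted p under 0.05 (9.1%, against 14.4% of all rows). Gad1 and Gad2, the GABA-synthesising enzymes, differed by 0.026 (adjusted p = 0.865) and 0.16 (adjusted p = 0.469). Slc12a2, the chloride importer NKCC1, was at 7.70 ± 0.10 in poly(I:C) offspring and 7.91 ± 0.23 in controls (SD, n = 6 each), a difference of -0.22 (limma adjusted p = 0.303), and Gabbr1, a GABA-B receptor subunit, differed by 0.059. Slc12a2 is also known from choroid plexus, whose marker mean was 4.68 ± 0.092 in poly(I:C) offspring and 5.38 ± 0.81 in controls, and the part of that tissue in the value was not tested.

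Genes that assemble, anchor and traffic GABA-A receptors gave 0 calls among 22 measured of 23 listed. In value 14 were higher and 8 lower, and their median difference was 0.030. An unadjusted limma p under 0.05 was found for 4 (18.2%, against 14.4% of all rows). Gphn, the scaffold gephyrin of inhibitory synapses, was nearly level, at 8.62 ± 0.026 in poly(I:C) offspring and 8.60 ± 0.032 in controls (SD, n = 6 each), a difference of 0.018 with an interval of -0.044 to 0.080 (limma adjusted p = 0.827). Slitrk3, an adhesion gene of inhibitory synapses, lay between 8.24 and 8.28 in poly(I:C) arrays and between 7.84 and 8.21 in controls. The ranges of Slitrk3 did not overlap, which held for 1.13% of all rows. Its difference was 0.23 (limma adjusted p = 0.104), and without control 3 it passed at 0.26 (adjusted p = 0.0456). In that setting 84 rows passed, against 13 in the main fit, and Slitrk3 passed in no other alternative. Nsf, a vesicle fusion ATPase that also takes part in receptor delivery, differed by 0.19 (adjusted p = 0.255), and Trak2, a kinesin adaptor, by -0.13 (adjusted p = 0.204).

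Glycine receptor subunits, the nearest relatives among chloride channels, had a median difference of -0.056 over 5 genes, 2 higher and 3 lower in value. The limma fit called 0 of 5, with 1 at an unadjusted p under 0.05 (20%, against 14.4% of all rows). Glrb, the beta subunit that binds gephyrin, was at 9.16 ± 0.070 in poly(I:C) offspring and 9.01 ± 0.13 in controls (SD, n = 6 each), a difference of 0.15 (limma adjusted p = 0.262). Glra1 differed by -0.30 (adjusted p = 0.422) and Glra4 by -0.056 (adjusted p = 0.461), and both lay below the median level of all rows.

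**Figure D5:**
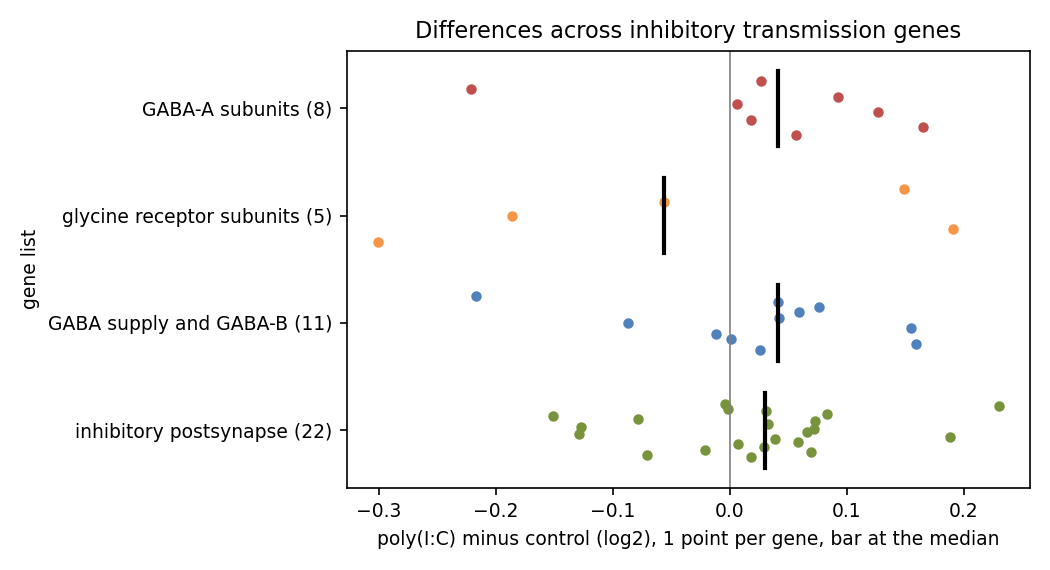
Difference between poly(I:C) and control offspring on the log2 scale, with 1 point per gene and a bar at the median, for the 8 GABA-A subunit genes and 3 lists of related genes. Medians lie between -0.056 for glycine receptor subunits and 0.041 for the GABA-A subunits and for the GABA supply list.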

How the data were processed

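Total RNA of the nucleus accumbens, 250 ng per sample, was hybridised to Affymetrix Mouse Gene 1.1 ST array strips, per the labels' protocols. The authors deposited 1 table of 35556 log2 values per array for 12 arrays, made with RMA and Partek 6.6 per the submitters' processing notes. The log2 scale was read from the values (1.86 to 12.29). Because RMA brings the arrays close to a common distribution, a shift common to most genes is largely removed. The medians of the deposited arrays still lay between 4.78 and 4.85. The labels name no genome build or batch, and the number of arrays limits the precision.

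Groups were taken from the sample titles. Of all rows, 21218 had 1 gene symbol in the platform annotation and were tested, 1881 had several and 12457 had no listed gene. Gene identifiers matched RefSeq (GRCm38.p6) for 21185 rows and changed 0 symbols. The rows were fitted with limma 3.58.1 in R 4.3.3 (lmFit and eBayes, exposure as the only term, two-sided, Benjamini-Hochberg adjustment), after a test on simulated data. Differences are poly(I:C) minus control. Correlations used Pearson's r and Spearman's rho with two-sided permutation tests in SciPy 1.17.1 (100000 permutations over 12 arrays, exact enumeration over 6), adjusted over their family.

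Genes named were the 8 subunits, up to 3 genes with the smallest p in each related list plus Gad1, Gad2, Gphn and Glrb, Slc17a7, Ttr, the brightest gene of each cell type list and the 3 rows most like each subunit. The brightest cell type markers were Penk, Slc17a7, Zic1, Ttr, Slc1a2, Cnp, Csf1r and Sst. The members and lists were chosen with earlier results of these data known. Same-numbered arrays deviated together in 1 of 6 pairs only (r over 0.1), so the numbers were not treated as pairs. The alternatives were quantile normalization, median centring, a filter on dim rows, all rows of the table, trended and robust variance, array weights, a replicate block, 3 marker means as covariates, and arrays left out.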

Additional observations from a re-analysis of the deposited data

Results flagged for a closer look

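Of 38 sets of 6 values checked for a single array far from the rest (the 8 subunit genes and 11 list means in each group), 2 were marked, and chance marks about 1 in 20. Gabra3 was at 8.45 in control 4, against 8.81 in the next lowest control, a gap of 0.688 of the group's range. Gabra5 was at 8.63 in control 5, against 8.37 in the next highest control, a gap of 0.653 of the range. Control 4 also had the lowest astrocyte marker mean of the 12 arrays (7.66).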

How the results depend on the processing

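Of 21 alternative settings, 0 brought any of the 8 subunit genes past the adjusted threshold, and Gabra5, Gabrg1 and Gabrg3 kept their direction in 21. The mean of all rows with a symbol gave no other value, since each gene had 1 row. Some differences changed sign: Gabrb1 to -0.0091 with quantile normalization and -0.031 with array weights, Gabra2 to -0.035, Gabra4 to -0.018 and Gabrd to -0.012 with array weights, Gabra3 to -0.058 with the 3 marker means as covariates, and Gabrd to -0.018 without controls 4 and 6. With 1 array left out, Gabra2 ran from -0.037 to 0.041, Gabrb1 from -0.068 to 0.048 and Gabrd from -0.039 to 0.069, while Gabra3 ran from 0.055 to 0.22, Gabra4 from 0.0066 to 0.096 and Gabra5 from 0.051 to 0.15. The signal order of the subunits was the same with quantile normalization.

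The count over all rows was 13 and was unstable. It was 38 with quantile normalization, 20 with rows at or above the median level, 1 with trended and robust variance, 140 with array weights, and 0 for all rows of the table, with the replicate block, with the marker means as covariates and without controls 4 and 6. With 1 array left out it ran from 0 to 84: it was 84 without control 3, 54 without control 1, 39 without poly(I:C) 6, 28 without poly(I:C) 1, 6 without control 2 and 0 without any one of the others. The list of genes that assemble and anchor the receptors gave 0 to 1 calls with 1 array left out, and the GABA supply list, the glycine receptor list and the other subunit rows gave 0. The cell type lists were not recounted. In 11 of 21 alternatives 0 rows of any gene passed, so the Mobp call was lost in those. Relations of subunits with 3 marker lists numbered 1 of 24; the count was 0 after subtraction of group means, 0 without controls 4 and 6, and 6 of 64 with 8 lists, settings added after the data were seen. With the replicate block the Gabrg3 difference was 0.17 (adjusted p = 0.390) and 0 of the 8 genes passed. The cause of these shifts was not tested.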
